A study of Mus musculus with 12 samples.

Results

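The growth hormone receptor and IGF1 axis was followed through 10 genes of the 53465 genes in the count table: the receptor gene Ghr, the transcription factor genes Stat5a and Stat5b, the genes of the circulating IGF1 complex (Igf1, Igfals and Igfbp3), the feedback inhibitor genes Socs2 and Cish, and the repressor genes Bcl6 and Cux2. They were chosen by name, for their place in the pathway, and all 10 are described here whatever their values. The samples were whole livers of C57BL/6N mice of 3 age groups, called young at 3 months of age, middle-aged at 12 and aged at 18, with 4 livers per group and each sample taken from a single animal. The mice carried no transgene and received no treatment according to the labels, and the study's methods describe male animals. In the 12 livers the female-specific transcript Xist had 0 to 2 reads and the Y-linked gene Ddx3y had 489 to 899.

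In liver, growth hormone binds its receptor on hepatocytes, and the receptor-bound kinase JAK2 then phosphorylates STAT5A and STAT5B, which enter the nucleus and switch on genes such as Igf1, Igfals, Socs2 and Cish. IGF1 leaves the liver and circulates in a complex with IGFBP3 and the acid-labile subunit encoded by Igfals, while SOCS2 and CIS, the product of Cish, dampen the receptor. In male rodents growth hormone is secreted in pulses, and liver genes that depend on the pulses differ between the sexes. BCL6 is a male-biased repressor that binds many of the same DNA elements as STAT5, and CUX2 is a repressor made mostly in female liver.

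The libraries held 8124312 to 10527159 reads assigned to genes. External spike-in RNAs took a further 1.59% to 10.6% of all counted reads, and their composition separated the libraries into replicates 1 and 2 of every age on one side and replicates 3 and 4 on the other. Across 31 well-counted spike-ins, the centred log composition correlated at 0.92 to 0.99 between libraries on the same side and at -0.99 to -0.94 between libraries on opposite sides. Each age had 2 livers on each side, so values are also given for each side alone where they matter. The spike-in share was 3.50% to 10.6% in young livers, 1.59% to 2.73% in middle-aged livers and 1.87% to 3.51% in aged livers. The mitochondrial share of gene reads was 7.40% to 19.2%, 6.45% to 9.03% and 5.48% to 7.53% in the same order. The tested hepatocyte markers (12 of 12) and sinusoidal endothelial markers (12 of 12) gave 0 calls in any comparison of ages with DESeq2 or edgeR, and with DESeq2 4 of the former and 0 of the latter had an unadjusted p under 0.05 between aged and young livers. Marco (1 of 11 Kupffer markers tested), Ecm1 (1 of 12 stellate) and Sox9 (1 of 7 cholangiocyte) were higher in aged than in young livers. Of all tested genes, 1.87% were higher in that comparison. The medians of these lists were log2 differences of -0.09, 0.00 and -0.10. Marco had 791, 104, 96.1 and 261 normalised counts in aged livers and 36.7 to 79.1 in young ones. Ighm and Igkc, antibody genes, were higher in middle-aged than in young livers (2 of 7 lymphocyte markers tested, next to 3.51% of all genes). In these comparisons edgeR called 0 Kupffer, 0 cholangiocyte and 0 lymphocyte markers, with 1, 2 and 2 at an unadjusted p under 0.05, and 1 stellate marker. These marker genes were named after their values were seen. In whole liver, fewer cells of a type and less RNA per cell cannot be told apart.

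STAT5 proteins recognise the palindrome TTCNNNGAA, which reads alike on both strands. RefSeq promoter windows of 300 bases, from 250 before to 50 after a transcript start (GRCm38.p6), were at hand for 9 of the 10 genes, with 16 windows in all. Socs2 was the gene without a window and was not searched. Cish, Bcl6 and Igfals held the motif. Of all 32851 mouse promoter windows, 8.30% held at least 1 such motif, 0.457% at least 2 and 0.0335% at least 3. The Cish window at chr9:107296409-107296708 (plus strand) held 2, and the Bcl6 window at chr16:23981234-23981533 (minus strand) held 3. A further Bcl6 window at chr16:23988803-23989102 (minus strand) and the Igfals windows at chr17:24877594-24877893 and chr17:24877981-24878280 (plus strand) held 1 each. The windows of Cish and Bcl6 are shown because these genes varied most between livers, and that of Igfals because its product carries IGF1. Sequences run 5′ to 3′ along the gene's strand, and capitals mark each TTCNNNGAA.
Cish: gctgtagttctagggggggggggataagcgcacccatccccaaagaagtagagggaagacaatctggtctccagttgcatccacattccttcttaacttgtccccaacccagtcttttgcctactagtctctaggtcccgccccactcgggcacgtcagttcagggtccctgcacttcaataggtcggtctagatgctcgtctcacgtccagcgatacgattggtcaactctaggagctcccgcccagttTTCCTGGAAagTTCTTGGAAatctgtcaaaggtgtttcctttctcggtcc
Bcl6, inner start: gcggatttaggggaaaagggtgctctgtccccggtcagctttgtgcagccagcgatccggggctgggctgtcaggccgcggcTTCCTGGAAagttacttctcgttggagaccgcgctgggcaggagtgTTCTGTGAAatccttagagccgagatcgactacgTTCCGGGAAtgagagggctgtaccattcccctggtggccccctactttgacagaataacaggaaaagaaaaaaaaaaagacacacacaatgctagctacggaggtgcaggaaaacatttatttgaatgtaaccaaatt
Bcl6, outer start: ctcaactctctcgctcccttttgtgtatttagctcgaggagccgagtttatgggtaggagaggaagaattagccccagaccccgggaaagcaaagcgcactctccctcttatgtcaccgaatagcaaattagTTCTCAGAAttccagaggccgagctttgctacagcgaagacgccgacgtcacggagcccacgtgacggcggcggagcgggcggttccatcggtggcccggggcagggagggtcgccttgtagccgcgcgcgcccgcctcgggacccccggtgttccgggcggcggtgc
Igfals: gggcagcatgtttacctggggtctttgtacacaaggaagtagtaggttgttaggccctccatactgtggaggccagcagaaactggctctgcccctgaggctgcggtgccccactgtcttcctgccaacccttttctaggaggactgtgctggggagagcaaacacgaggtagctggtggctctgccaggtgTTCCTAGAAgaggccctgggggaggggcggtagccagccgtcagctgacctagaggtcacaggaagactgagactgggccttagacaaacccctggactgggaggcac
Both Cish motifs lay close to the annotated start, with their first bases at positions 1 and 12 downstream of it, and the 3 Bcl6 motifs at the inner start began 168, 122 and 88 bases upstream. A match in these letters is a description of the sequence and not evidence of binding.

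The 10 genes spanned a wide range of levels. Per kilobase of exon, the mean normalised count over the 12 livers was 604 ± 55.5 for Ghr and 494 ± 60.3 for Igf1 (SD, n = 12), and their ranges overlapped, with Ghr above Igf1 in 11 of 12 livers. Igfals followed at 246 ± 39.0 and Stat5b at 98.7 ± 11, each apart in range from the gene above it, and Stat5b overlapped Bcl6 below it. Bcl6 (51.5 ± 36.8), Igfbp3 (36.1 ± 7.93), Socs2 (24.8 ± 15.6), Cish (20.4 ± 22.6) and Stat5a (12.9 ± 2.84) came next on this per-kilobase scale, and each overlapped the next in its range over livers. Cux2 was lowest, at 0.254 ± 0.188 normalised counts per kilobase.

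**Figure D1:**
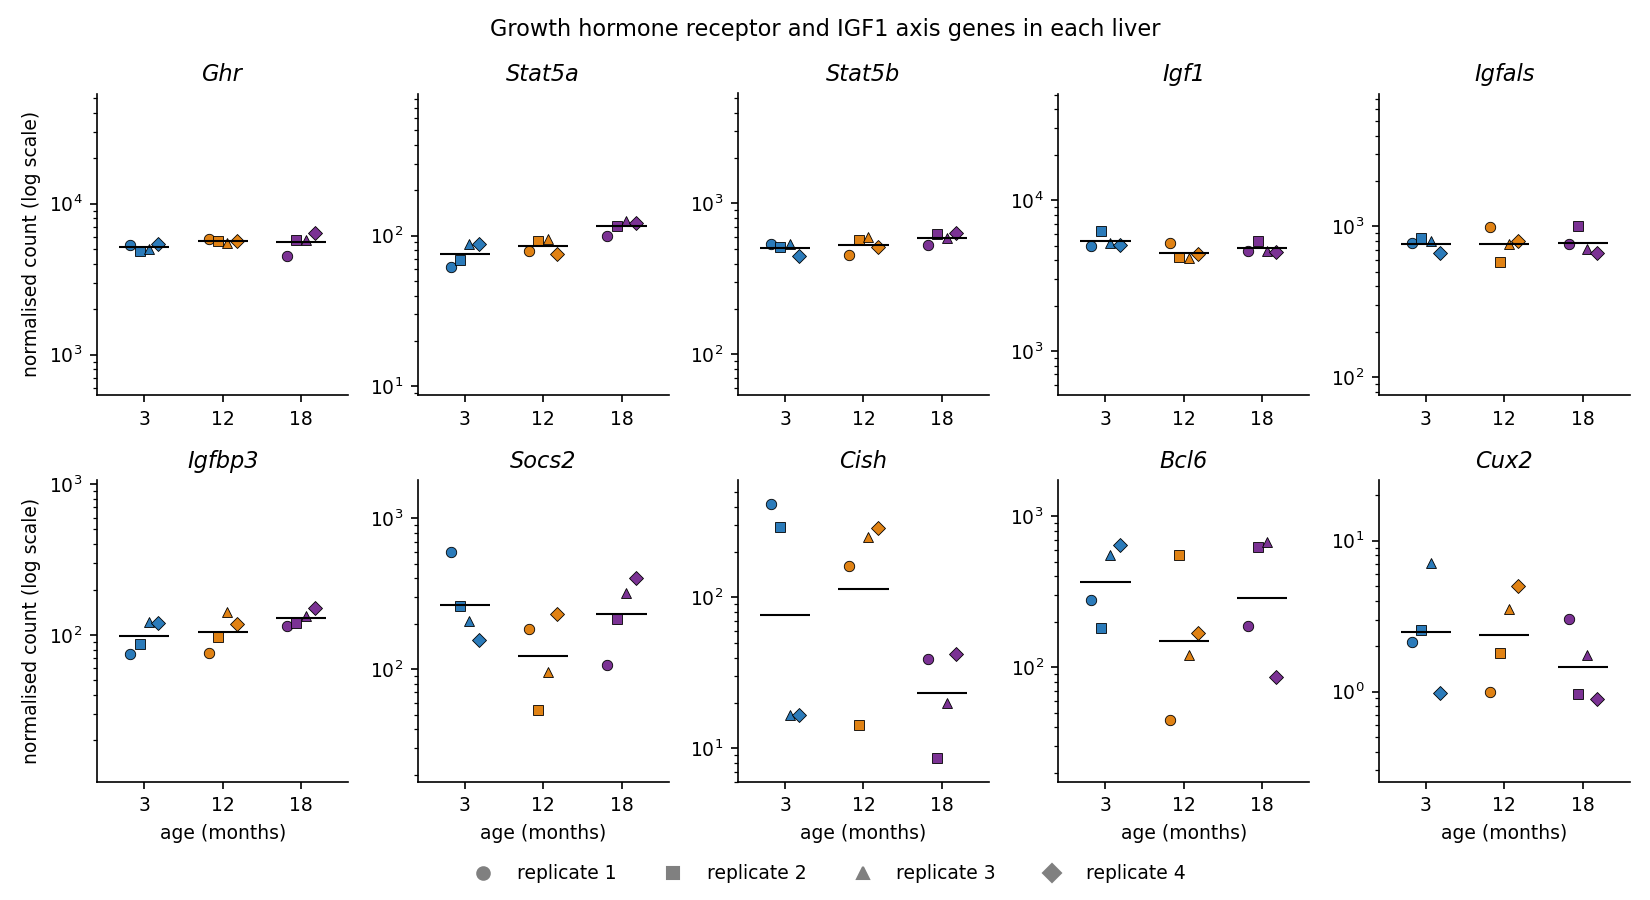
Normalised count of each axis gene (log scale, each panel spanning the same 100-fold range) by age in months; each point is 1 liver, its shape the replicate number, and the line is the geometric mean of the 4 livers. Ghr, Igf1 and Stat5b stay within narrow bands, Cish spreads from 8.67 to 415 and Bcl6 from 44.7 to 679.

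Ghr, which encodes the growth hormone receptor, was the most abundant of the 10 transcripts and differed little between ages. Its normalised counts were 5355, 4873, 5043 and 5369 in young livers, 5794, 5621, 5515 and 5642 in middle-aged livers and 4496, 5781, 5744 and 6435 in aged livers, in replicate order. Every middle-aged liver lay above every young liver, whereas aged replicate 1 had the lowest value of all 12 and aged replicate 4 the highest. The middle-aged group exceeded the young one by 0.13 on the log2 scale (SE 0.10, DESeq2 adjusted p = 0.471), and groups that do not overlap in this direction were found for 7.99% of the genes tested. The aged group exceeded the young one by 0.12 (SE 0.10, adjusted p = 0.605). Without aged replicate 1 that difference became 0.21 with an adjusted p of 0.0117, so this single liver decided the call.

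Stat5a, one of the STAT5 genes that carry the signal to the nucleus, was the single axis gene called between ages. Its normalised counts were 61.6, 68.8, 87.7 and 87.9 in young livers, 79.4, 91.6, 94.5 and 75.2 in middle-aged livers and 99.4, 117, 124 and 122 in aged livers. All 4 aged livers lay above all 8 younger ones. Aged livers had 1.51-fold the young level (95% interval 1.19 to 1.91, log2 difference 0.59, SE 0.17, DESeq2 adjusted p = 0.0261), and the test across the 3 ages gave an adjusted p of 0.0267. This was 1 of 9 axis genes tested, against 3.58% of all genes tested between aged and young livers and 6.96% across the 3 ages. Groups that do not overlap, with the aged one higher, were found for 3.84% of tested genes in this comparison.

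The call of Stat5a was lost under several settings, without a change of sign. With the edgeR quasi-likelihood test the adjusted p was 0.069, and leaving out young replicate 1 or 2 or aged replicate 2, 3 or 4 raised it to between 0.093 and 0.15, with log2 differences of 0.50 to 0.59. Among replicates 1 and 2 alone the log2 difference was 0.73 (adjusted p = 0.7), and among replicates 3 and 4 alone it was 0.48 (adjusted p = 0.69). Against middle-aged livers the aged ones were higher by 0.44 (SE 0.17, adjusted p = 0.249), without overlap, as was so for 3.26% of the genes tested, and middle-aged livers exceeded young ones by 0.16 (SE 0.18, adjusted p = 0.671). Only 54 to 142 reads per library lay behind these values. The last 72 bases of Stat5a (chr11:100859351-100885169) overlap Stat3 on the opposite strand, and the log2 difference of Stat3 between aged and young livers was 0.01. Stat5a and its neighbour Stat5b share sequence, with 3.44% of the 100-base windows of Stat5a also present in Stat5b.

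Stat5b, the STAT5 gene on which most growth hormone responses of male liver depend, was expressed several times higher than Stat5a per kilobase in every age group. Its normalised counts were 538, 512, 536 and 450 in young livers, 453, 574, 595 and 514 in middle-aged livers and 527, 627, 594 and 637 in aged livers. The groups overlapped at every step. The aged group exceeded the young one by 0.23 on the log2 scale (SE 0.11, unadjusted p = 0.0386, DESeq2 adjusted p = 0.274), a difference that passed the threshold only with total counts as the scaling (0.35, adjusted p = 0.0498). Under that scaling the median of all genes moved up by 0.12 in this comparison.

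Igf1, the hormone gene through which the liver passes on the growth hormone signal, was lower on average in middle-aged than in young livers, without passing the test. Its normalised counts were 4987, 6271, 5196 and 5082 in young livers, 5200, 4216, 4147 and 4384 in middle-aged livers and 4624, 5405, 4640 and 4553 in aged livers. Middle-aged replicates 2, 3 and 4 lay below every young liver, while middle-aged replicate 1 fell within the young range. The log2 difference was -0.26 (SE 0.10, fold 0.833, 95% interval 0.724 to 0.959), with an unadjusted p of 0.0112 and a DESeq2 adjusted p of 0.101. Without middle-aged replicate 1 it was -0.34 with an adjusted p of 0.0218. Aged livers differed from young ones by -0.16 (SE 0.10, adjusted p = 0.471). The antisense gene Igf1os overlaps Igf1 (chr10:87858265-87937042) and had 3 to 33 reads per library.

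The partners of IGF1 in the circulating complex were not called in any comparison of ages. Igfals, which encodes the acid-labile subunit, had normalised counts of 780, 842, 801 and 663 in young livers, 984, 577, 767 and 803 in middle-aged livers and 765, 1002, 711 and 668 in aged livers. Its group means were within 2 percent of each other, and its aged to young log2 difference was 0.03 (SE 0.17, 95% interval of the fold 0.812 to 1.28). Igfbp3, the main carrier of IGF1 in blood and a gene expressed mostly outside hepatocytes, had 74.3, 86.6, 122 and 120 in young livers, 75.5, 97.0, 141 and 118 in middle-aged livers and 115, 119, 133 and 152 in aged livers. Replicates 1 and 2 lay below replicates 3 and 4 at each age. The aged group was higher than the young one by 0.37 on the log2 scale (SE 0.22, DESeq2 adjusted p = 0.45).

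Igf1 and Igfals were compared liver by liver. After each age mean was removed, their log2 values correlated at Pearson r = 0.75 over the 12 livers (exact permutation within ages, two-sided p = 0.0118, adjusted p = 0.0541 over the 8 pairs computed) and Spearman rho = 0.71 (exact permutation p = 0.0137, adjusted p = 0.0905). Neither passed the threshold once adjusted, although without middle-aged replicate 2 the Pearson coefficient did (r = 0.81, exact permutation p adjusted to 0.0417). The coefficient was 0.88 without the 2 livers farthest from the median of Igf1, 0.82 among replicates 1 and 2 and 0.61 among replicates 3 and 4. On either side the exact permutation p within ages was 0.25, unadjusted. With 2 livers per age that p cannot go lower, so neither side alone can serve as a repeat of the test. For Ghr with Igf1 r was -0.04, for Igf1 with Socs2 0.13 and for Stat5a with Stat5b 0.27, with exact permutation p-values adjusted to 0.905, 0.834 and 0.689. No coefficient is given for the 4 pairs with Cish, Bcl6 or Cux2, because Cish and Bcl6 fell into separate groups of livers and Cux2 rested on few reads.

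The feedback inhibitors and Bcl6 varied widely between livers of the same age. The within-age SD on the log2 scale was 1.93 for Cish, 1.29 for Bcl6 and 0.87 for Socs2, above 99.9%, 99.6% and 98.8% of the 8888 genes whose normalised counts averaged 50 or more. The median of those genes was 0.19. Igfbp3 (0.32), Igfals (0.25) and Stat5a (0.19) lay nearer to that median, and Stat5b (0.14), Igf1 (0.14) and Ghr (0.13) lay below it.

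**Figure D2:**
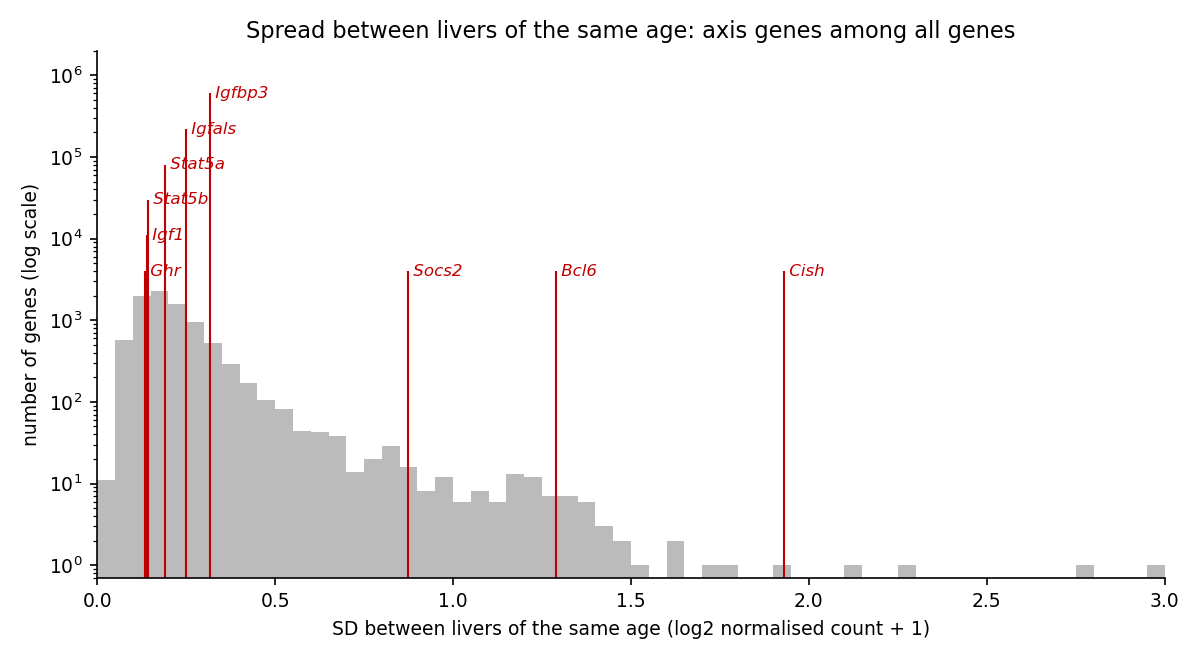
Number of genes (log scale) by their SD between livers of the same age, in log2 units, for the 8888 genes whose normalised counts averaged 50 or more; red lines mark the 9 axis genes among them. Ghr, Igf1 and Stat5b sit below the median of 0.19, and Socs2, Bcl6 and Cish lie far out in the right tail.

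Cish, an immediate target of STAT5 whose product blocks the receptor, had normalised counts of 415, 292, 16.6 and 16.6 in young livers, 162, 14.4, 253 and 291 in middle-aged livers and 39.1, 8.67, 20.1 and 42.0 in aged livers. It was thus high in 2 young and 3 middle-aged livers and low in the other 7, and all 4 aged livers were among the low ones. The highest liver exceeded the lowest 47.9-fold. The aged group was below the young one by a log2 difference of -2.75 (SE 1.08, unadjusted p = 0.0107, DESeq2 adjusted p = 0.141) and below the middle-aged one by -2.71 (SE 1.08, adjusted p = 0.273), neither passing the threshold. Both low young livers were replicates 3 and 4, so that the aged to young difference was -3.89 within replicates 1 and 2 and 0.90 within replicates 3 and 4. Within replicates 3 and 4 the middle-aged to young difference was 4.02, against -0.04 over all livers. The pseudogene Gm17040 overlaps Cish (chr9:107296026-107302784) on the opposite strand and had 1 to 13 reads, next to 9 to 391 reads of Cish.

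Socs2, a feedback inhibitor whose loss in mice causes gigantism, had normalised counts of 594, 264, 207 and 155 in young livers, 184, 53.9, 96.2 and 234 in middle-aged livers and 106, 215, 318 and 404 in aged livers. The groups overlapped in all comparisons, and the highest liver exceeded the lowest 11-fold. The middle-aged group was lower than the young one by a log2 difference of -1.11 (SE 0.59, DESeq2 adjusted p = 0.253), and the aged group differed from the young one by -0.23 (SE 0.59, adjusted p = 0.913). The aged to young difference of Socs2 was -1.41 within replicates 1 and 2 and 0.99 within replicates 3 and 4.

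Bcl6, the repressor, had normalised counts of 279, 183, 558 and 647 in young livers, 44.7, 557, 120 and 168 in middle-aged livers and 187, 627, 679 and 86.7 in aged livers. Each age thus held livers above 550 and livers below 280, with none in between. Group means were 417 ± 221, 222 ± 229 and 395 ± 302 for young, middle-aged and aged livers (SD, n = 4). No comparison passed the test, with DESeq2 adjusted p-values of 0.567 for middle-aged against young, 0.983 for aged against young and 0.859 for aged against middle-aged. The aged to young log2 difference was 0.82 within replicates 1 and 2 and -0.66 within replicates 3 and 4.

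Cish and Bcl6 were set against each other liver by liver. Young replicates 3 and 4, middle-aged replicate 2 and aged replicates 2 and 3 had Bcl6 at 557 or above, and in these livers Cish was at 20.1 or below. Young replicates 1 and 2 and middle-aged replicates 1, 3 and 4 had Cish at 162 or above, and in these Bcl6 was at 279 or below. Aged replicates 1 and 4 belonged to neither set, with Cish at 39.1 and 42.0 and Bcl6 at 187 and 86.7. Socs2 did not sort the livers in the same way, since it was 594 in the young liver with the most Cish but 318 and 404 in aged replicates 3 and 4, where Cish was low. These sets of livers were seen in the data and then described on the same livers, and no test was made of them. Cish with Bcl6 was, however, among the pairs correlated over the 12 livers. The pair did not pass once adjusted (exact permutation within ages, adjusted p = 0.0541 for Pearson and 0.0905 for Spearman).

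**Figure D3:**
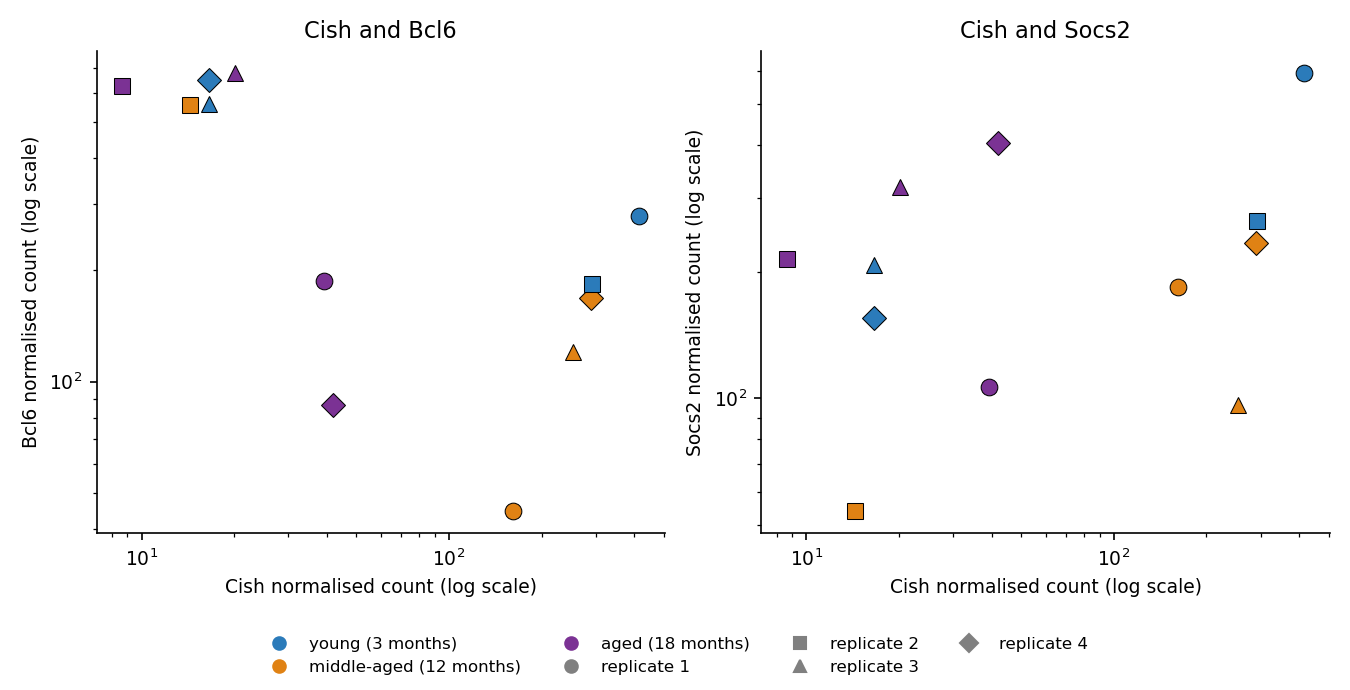
Normalised counts of Cish against Bcl6 (left) and Socs2 (right) on log axes; each point is 1 liver, its colour the age and its shape the replicate number. The 5 livers with Bcl6 at 557 or above all have Cish at 20.1 or below, and aged replicates 1 and 4 are low in both.

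Cux2, the repressor of female liver, was at trace level, with 1 to 6 reads in each library and 10 of 12 libraries at 4 reads or fewer. Its means were 3.19 ± 2.70, 2.83 ± 1.80 and 1.65 ± 0.98 normalised counts in young, middle-aged and aged livers (SD, n = 4). DESeq2 gave it no adjusted p in any comparison because of its low counts, and no difference was detectable at this depth.

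Over all axis genes, 1 of the 9 tested was called between aged and young livers (Stat5a), 0 between middle-aged and young livers and 0 between aged and middle-aged livers. Of all genes tested, 6.41% were called between middle-aged and young livers and 1.14% between aged and middle-aged livers. In the middle-aged to young comparison 1 axis gene had an unadjusted p under 0.05 with DESeq2 and 1 with edgeR, and in the aged to middle-aged comparison 2 and 1 did. edgeR called 0 axis genes in each comparison, with 3 at an unadjusted p under 0.05 between aged and young livers. The comparisons share their groups, so they are not independent of each other. The median log2 difference of the 9 axis genes tested was 0.03 between aged and young livers and 0.02 between middle-aged and young livers, and over all genes tested it was 0.00 and 0.01.

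**Figure D4:**
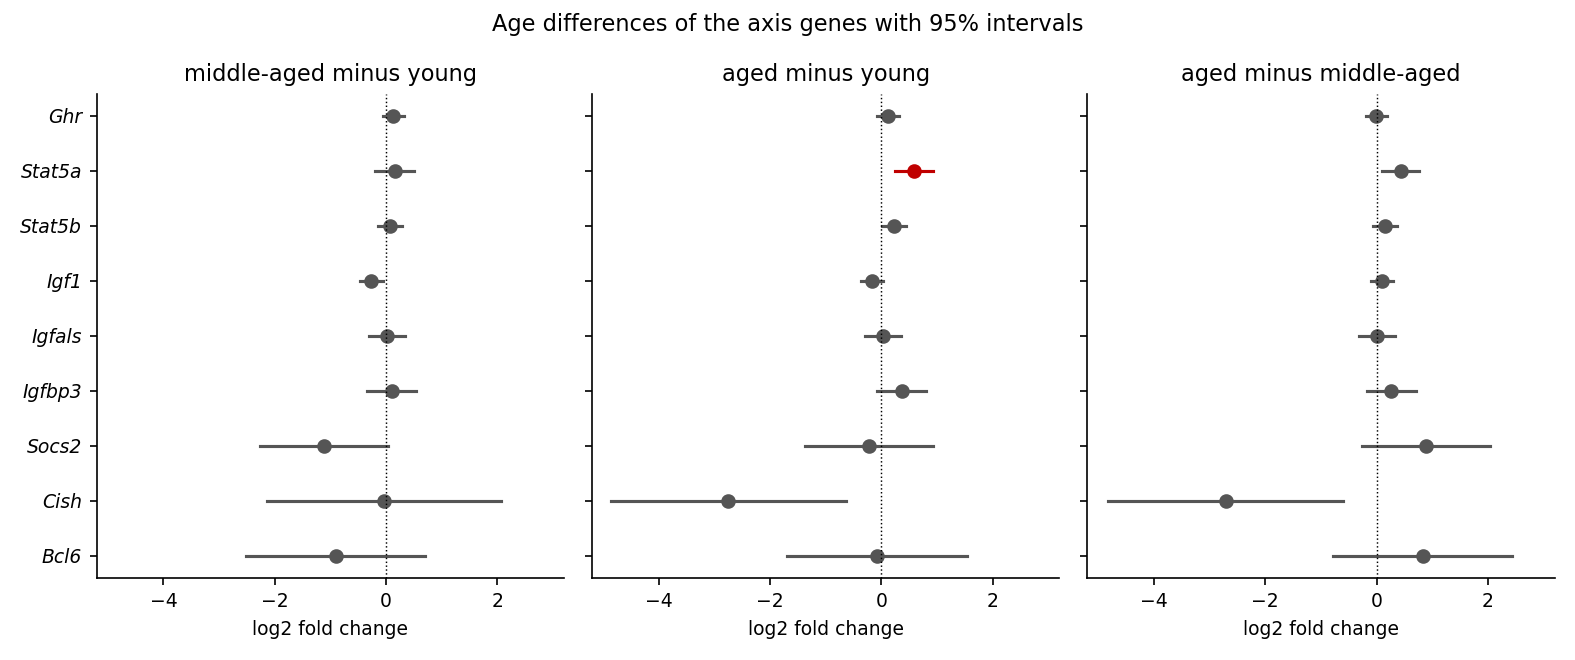
Log2 fold change of the 9 tested axis genes in the 3 comparisons of ages, with 95% intervals; red marks an adjusted p under 0.05. Stat5a between aged and young livers is the single red point, and the intervals of Socs2, Cish and Bcl6 are several times wider than those of Ghr, Igf1 and Stat5b.

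Genes whose profile over the 12 livers was most like that of an axis gene were ranked by Pearson r of log2 values among 8879 genes, as a description. Ghr ran closest to Pkn2, a protein kinase (r = 0.95), Nxt2 (0.95) and the lysosomal membrane gene Lamp2 (0.94). Igf1 ran closest to Dpagt1, which starts N-glycan synthesis (0.91), Ube2f (0.87) and the complement gene C4a (0.86). Socs2 ran closest to Rab6a (0.87), Hnrnph1 (0.84) and Rbm7 (0.81). Cish ran closest to Arid5b (0.94), Phlda1 (0.90) and the forkhead factor gene Foxq1 (0.89), and Bcl6 to the stress kinase gene Eif2ak3 (0.85), Sec23ip (0.84) and Ahr (0.80). For Cish and Bcl6 these coefficients run over livers that fall into separate groups. Arid5b had 1083 and 679 normalised counts in young replicates 1 and 2, 174 and 284 in young replicates 3 and 4, and 216 to 245 in the 4 aged livers.

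Of 26 further genes of growth hormone receptor signalling, 1 rose and 0 fell between young and aged livers, where 1.87% and 1.71% of all tested genes did so. Of the 26, 6 had an unadjusted p under 0.05. Of 25 tested, 0 were called between young and middle-aged livers with DESeq2 or edgeR (6 and 5 at an unadjusted p under 0.05). The gene that rose was Prlr, which encodes the prolactin receptor, a relative of the growth hormone receptor with higher expression in female liver. Its normalised counts were 380, 445, 463 and 633 in young livers, 778, 861, 533 and 733 in middle-aged livers and 636, 1167, 1444 and 1133 in aged livers. Every aged liver lay above every young one, though narrowly for aged replicate 1 (636) against young replicate 4 (633). Such a gap, with the aged group higher, was found for 3.84% of tested genes. The log2 difference of Prlr was 1.19 (SE 0.23, DESeq2 adjusted p = 6.77e-05). It was 1.14 within replicates 1 and 2 and 1.23 within replicates 3 and 4, and edgeR also called it (adjusted p = 0.039). Jak2, the kinase of the receptor, had means of 158 ± 14.7 and 157 ± 14.7 in young and aged livers (SD, n = 4, adjusted p = 0.995). Socs3, a cytokine-induced inhibitor, had 176 ± 173 and 147 ± 201 (adjusted p = 0.938).

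Of 15 other IGF ligands, receptors and binding proteins, 10 were tested, and Igfbp1 fell at both later ages. Igfbp1 encodes a binding protein that insulin represses and fasting induces. Its normalised counts were 260, 569, 482 and 429 in young livers, 36.7, 66.4, 24.7 and 41.1 in middle-aged livers and 182, 77.1, 120 and 16.1 in aged livers. Neither older group overlapped the young one, as was so, with the older group lower, for 7.96% of tested genes at middle age and 3.69% in aged livers. The log2 difference was -3.36 at middle age (SE 0.60, DESeq2 adjusted p = 5.58e-06), where edgeR also called it (0.025), and -2.14 in aged livers (SE 0.59, adjusted p = 0.0147), where edgeR did not (0.0957). Within replicates 1 and 2 these differences were -3.0 and -1.68, and within replicates 3 and 4 they were -3.80 and -2.75.

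Insr, the insulin receptor gene, rose at middle age by 0.49 (SE 0.16, DESeq2 adjusted p = 0.0314), but not with edgeR (0.08). It was 0.45 higher in aged than in young livers (adjusted p = 0.0848). Igf1r, the IGF1 receptor gene, which hepatocytes barely express, had means of 31.6 ± 8.46, 42.7 ± 16.2 and 50.5 ± 16.8 in young, middle-aged and aged livers (SD, n = 4) and was not called. Igfbp2, another binding protein gene of the list, had 4737 ± 718, 4514 ± 334 and 5104 ± 1855 and was not called either.

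Some of the genes known to follow the male growth hormone pulses through STAT5B were lower at the later ages. Of 20 male-biased genes, 7 fell and 0 rose in aged against young livers, where 1.71% and 1.87% of all tested genes did so. In middle-aged against young livers 6 of 19 tested fell and 1 rose (Npr2, named after its value was seen). Of all tested genes, 2.9% fell and 3.51% rose in that comparison. Nudt7, a peroxisomal coenzyme A hydrolase gene, went from 8541 ± 1005 in young to 4423 ± 413 in aged livers (SD, n = 4, log2 difference -0.95, SE 0.13, adjusted p = 5.35e-10). Cyp4a12a, a fatty acid hydroxylase gene of male liver, went from 3215 ± 377 to 1556 ± 485 (-1.05, SE 0.20, adjusted p = 3.45e-05), and its near-identical neighbour Cyp4a12b by -1.35, although reads of this pair may be split uncertainly. Elovl3 (-0.87) and Slco1a1 (-0.55) fell as well. At middle age Elovl3 (-1.33), Cyp4a12a (-1.11), Nudt7 (-0.71), Cyp4a12b (-1.32) and Cyp7b1 (-1.13) fell, all with adjusted p-values of 0.00103 or less. The median of the tested male-biased genes was -0.82 in aged and -0.72 in middle-aged livers, next to medians of 0.00 and 0.01 for all genes. edgeR called 2 lower in aged livers and 4 lower at middle age. The 7 lower in aged livers became 13 without aged replicate 1, 4 without young replicate 1, 3 or 4 or without aged replicate 4, 3 among replicates 1 and 2 and 13 among replicates 3 and 4. The part of the mitochondrial and spike-in shares, which moved with age, in these list counts was not tested. With total counts as the scaling, 5 fell and 2 rose in aged livers.

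Of 28 female-biased genes 17 were tested between aged and young livers, and 9 rose and 1 (Cyp2c69) fell, next to 1.87% and 1.71% of all tested genes. Whether a gene was tested depended on its mean over all livers. Slc22a26 averaged 1.04 normalised counts in young and 17.5 in aged livers, and Acot3 averaged 2.26 and 29.3. Their means were carried by the older livers, so the 9 of 17 cannot be set fully against the share of all genes. The members with the smallest adjusted p were Cyp4a14, Atp6v0d2, Acot3, Slc22a27 and Slc22a26, of which Cyp4a14 and Acot3 are also induced by the fatty acid receptor PPAR alpha. Cyp4a14 had 34.0, 1.27, 16.6 and 14.6 normalised counts in young livers and 20.1, 113, 3452 and 1204 in aged livers, so that the high values lay in aged replicates 3 and 4. Cyp2b9, a cytochrome gene nearly silent in normal male liver, had 1.0, 2.89, 629 and 398 in aged livers and at most 13.9 in any younger one. Atp6v0d2, by contrast, was higher in all 4 aged livers (83.0 to 149) than in all 4 young ones (20.4 to 56.6). The same held for 3.84% of all tested genes. Within replicates 3 and 4, 7 genes of the list rose, and within replicates 1 and 2, 1 did. Leaving out aged replicate 3 or 4 left 2 or 4 genes called higher, and edgeR called 0 (9 of the list at an unadjusted p under 0.05). At middle age 2 of 14 tested rose (Acot3 and Atp6v0d2) and Cyp2c69 fell, next to 3.51% and 2.9% of all tested genes. Cyp2c69 and Cyp2b9 are named here after their values were seen.

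**Figure D5:**
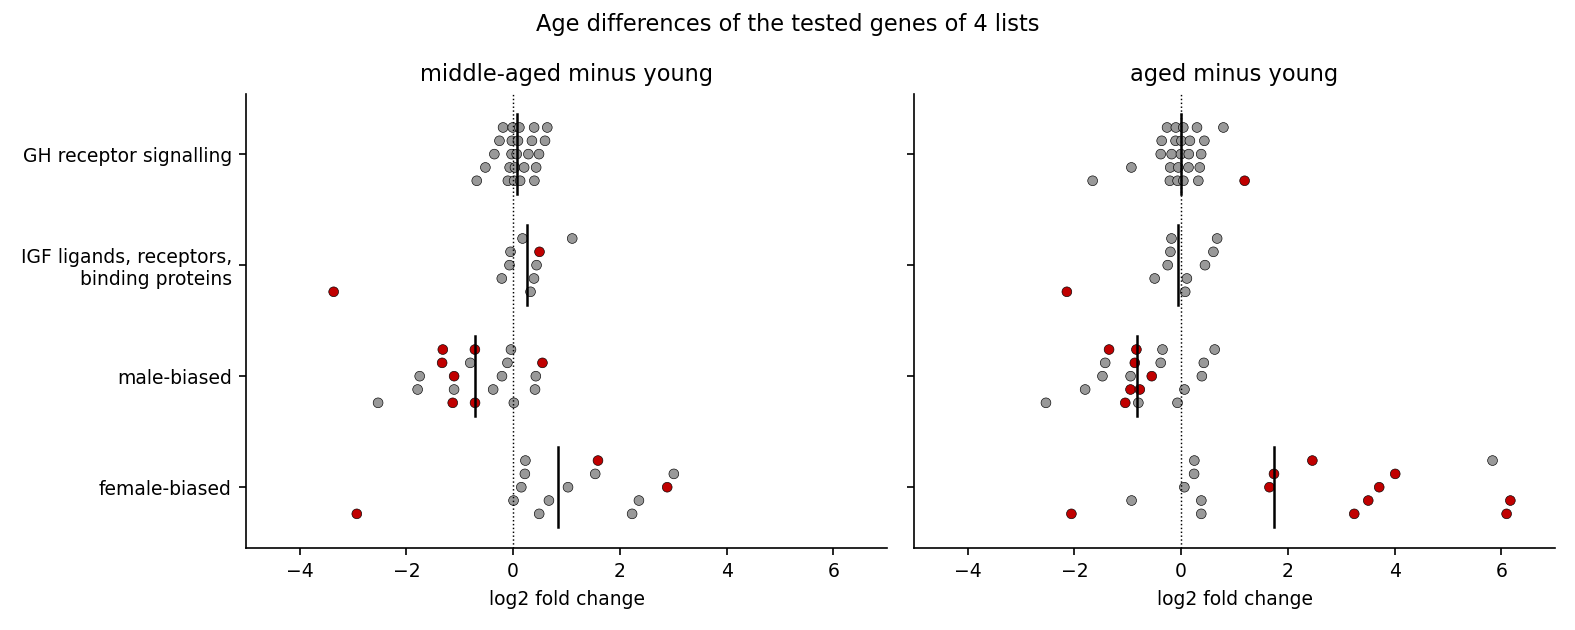
Log2 fold change of each tested gene in 4 lists around the axis, between middle-aged and young livers (left) and aged and young livers (right); red marks an adjusted p under 0.05 and the bar the list's median. Signalling genes centre on 0, male-biased genes lie mostly to the left (medians -0.72 and -0.82) and female-biased genes to the right, with 9 red points on that side in aged livers.

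Signals tied to fasting, which can blunt the growth hormone response of liver, were measured in the same libraries. Of 14 tested, 3 rose and 0 fell between young and aged livers, next to 1.87% and 1.71% of all tested genes. At middle age 2 of 13 rose and 0 fell, next to 3.51% and 2.9%. From middle-aged to aged livers 0 of 12 rose and 1 fell, next to 0.537% and 0.606%. The list's median log2 difference from young livers was 0.16 in aged and 0.17 in middle-aged ones. In these 3 comparisons edgeR called 2, 0 and 0 genes of the list. Fgf21, a fasting hormone gene, had 0 to 1.18 normalised counts in young livers, 0.88 to 8.08 in middle-aged livers and 9.03 to 33.2 in aged livers, and its aged to young difference passed the test (DESeq2 adjusted p = 0.00213). That call rests on few reads, with a mean over all livers of 7.99 that was carried mostly by the aged group. DESeq2 gave Fgf21 no adjusted p in the other comparisons of ages, and edgeR did not test it. Fgfr4, a fibroblast growth factor receptor gene of the same list, went from 289 ± 5.46 to 444 ± 74.0 (SD, n = 4, log2 difference 0.62, SE 0.13, DESeq2 adjusted p = 0.00045). At middle age Ppara, which encodes a fatty acid receptor, was higher than in young livers by 0.76 (DESeq2 adjusted p = 0.0393).

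Genes of the circadian clock, whose level depends on the hour, also differed between the groups. Of 16 tested, 3 were higher and 6 lower in aged than in middle-aged livers, where 0.537% and 0.606% of all tested genes were so. Of 17 tested between middle-aged and young livers, 6 were higher and 1 lower, next to 3.51% and 2.9% of all tested genes. edgeR called 3 clock genes in the first of these comparisons and 2 in the second. The output gene Dbp had 130 to 220 normalised counts in young livers, 503 to 908 in middle-aged livers and 18.4 to 173 in aged livers. The hour at which the livers were taken and the feeding state are not given in the sources used here, and the part of either in the values of Cish, Bcl6, Socs2, Igfbp1 and Fgf21 was not tested.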

How the data were processed

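Liver RNA of 12 mice, 4 at each of 3 ages, was sequenced as a directional library. The deposited table holds raw read counts per gene, which the authors made; the submitters' processing notes name STAR 2.5.2b, SAMtools 1.9 and featureCounts, with mm10 (GRCm38). The strand setting of the counting is not given in the sources used here. The design text names 3 replicates per age but 4 samples are labelled, the labels describe RNA from 4 young and 4 old livers, and the study's text says that its RNA-seq of several ages came from a public atlas, so how these libraries were prepared is uncertain. Spike-in rows (92) were kept out of library sizes and tests.

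The counts were fitted with DESeq2 1.42.0 in R 4.3.3 on all 12 samples with age as the term, with Benjamini-Hochberg adjustment over all tested genes, default independent filtering and a threshold of 0.05. edgeR 4.0.16, other scalings, filters, a replicate block, each side of the replicates alone and the omission of each liver were alternatives. On a single simulated data set with known changes, DESeq2 made more false calls than its threshold allows and edgeR came closer to it. The simulation gave every gene the same spread, unlike these livers, so the rate of false calls here is not known. Calls made by DESeq2 alone are taken as less certain. Normalised counts are counts divided by DESeq2 size factors, and log2 values used a pseudocount of 1. Gene names, exon lengths and positions came from GENCODE M21, in which 53274 of 53465 genes matched. Intervals are 95% intervals of the fit. The DESeq2 and edgeR p-values set differences between ages against the spread between these animals.

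All axis genes were named. From each list of related genes, those called were named, at most 5 per comparison by smallest adjusted p, together with Jak2, Igf1r, Igfbp1, Igfbp2, Fgf21 and Socs3; for 5 axis genes the 3 most similar profiles were named. The members and lists were chosen with earlier results of these data known. One gene of the fasting list is not reported here.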

Additional observations from a re-analysis of the deposited data

Results flagged for a closer look

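In each group of 4 livers, the highest and lowest values of the axis genes and marker scores were compared with the rest, and a value set apart by more than Dixon's 95% critical value was singled out. Chance gives about 1 in 20 such groups.

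Igf1 had a normalised count of 6271 in young replicate 2, where the other 3 young livers had 4987 to 5196, and 5405 in aged replicate 2, where the other 3 had 4553 to 4640. The mean log2 level of the hepatocyte markers was 15.4 in middle-aged replicate 2 and that of the endothelial markers 8.10, each above the other 3 middle-aged livers. The lymphocyte markers stood at 6.16 in young replicate 3, above the other young livers.

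The spike-ins, which no comparison used, took 1.59% of counted reads in the library with the lowest share, middle-aged replicate 3.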

How the results depend on the processing

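Of the 9 axis genes tested, 1 was called between aged and young livers, 0 between middle-aged and young livers, 0 between aged and middle-aged livers and 1 across the 3 ages. The first count was 0 with edgeR, without independent filtering, with only the 2 groups compared, among replicates 1 and 2 and among replicates 3 and 4, and 2 with total counts as size factors (Stat5a and Stat5b). The count across the 3 ages was 0 with edgeR, without independent filtering and among replicates 1 and 2. Among replicates 3 and 4 it was 2, and 1 gene (Cish) was called between middle-aged and young livers and 2 (Cish and Socs2) between aged and middle-aged livers. There the middle-aged to young difference of Cish turned from -0.04 to 4.02 (DESeq2 adjusted p = 4.01e-17), since both young livers of that side were low. The cause of these shifts was not tested.

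Over all genes, 484 were called between aged and young livers, 727 between middle-aged and young, 117 between aged and middle-aged and 865 across the ages. In that order, edgeR called 159, 263, 11 and 243 genes, replicates 1 and 2 alone gave 137, 251, 34 and 270, and without independent filtering the first 3 counts were 321, 443 and 62. Replicates 3 and 4 alone gave 305 at middle age against young and 307 between the older ages, fits of only the 2 groups gave 290 between aged and young livers and 1166 between middle-aged and young ones, and total counts gave 787 between aged and young. With total counts, the median of all genes rose by 0.12 in aged and 0.11 in middle-aged livers against young ones, and 648 genes were higher and 139 lower in aged livers, where the default scaling gave 253 and 231. At middle age these were 841 and 159, against 398 and 329.

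Leaving out 1 liver at a time, 0 to 2 axis genes were called between aged and young livers, 0 to 1 between middle-aged and young, and 0 to 2 across the ages. The counts over all genes ran from 237 to 1291, 345 to 1095, 45 to 198 and 496 to 1637, and each upper end came without aged replicate 1. The lower ends came without aged replicate 3, middle-aged replicate 2, middle-aged replicate 4 and young replicate 2. The correlation of Igf1 with Igfals ran from 0.64 to 0.82.

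Replicate numbers are shared by the ages, but each sample is a separate animal and same-numbered livers did not deviate together, with 2 of 12 same-numbered pairs correlating above 0.1 (range -0.30 to 0.16) and 1 of 12 livers closest to its own number. With a replicate block, 0 axis genes were called between aged and young livers and 0 across the ages, and over all genes 385 were called between middle-aged and young livers, 426 between aged and middle-aged ones and 451 across the ages. The block turned the coefficient of Stat5a with Stat5b from 0.27 to -0.25.

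At this depth, Cux2 and the low Cish values rest on few reads, and 4 livers per age leave differences of Cish, Bcl6 and Socs2 poorly resolved.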
